A study of Mus musculus with 8 samples.

Results

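The genes described here carry calcium across the cells of the distal nephron or belong to the vitamin D and klotho system that controls this transport. They are Calb1, Trpv5, Trpv6, S100g, Slc8a1, Atp2b1, Atp2b4, Kl, Vdr and Cyp24a1, a list chosen by name. All 10 were found among the 37583 gene identifiers of each count file, and all 10 passed the filter on low counts. RNA of whole mouse kidneys was sequenced in 8 libraries, 4 labelled knockout and 4 labelled wildtype. The knockout animals had the genotype Six2Cre+TFAP2Afl/flTFAP2Bfl/WT, which joins a Cre recombinase under Six2 control to floxed Tfap2a on both chromosomes and floxed Tfap2b on 1 of them. The wildtype animals were control littermates, labelled WT, whose floxed or Cre alleles the labels do not state. Neither group has an age, sex, litter or batch in the labels.

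Calcium that escapes the earlier nephron is taken back in the late distal convoluted tubule and connecting tubule in a transcellular route. It enters through the apical channels TRPV5 and TRPV6, is ferried by the buffers calbindin-D28k and calbindin-D9k, and leaves through the sodium-calcium exchanger and the plasma membrane calcium pumps. Active vitamin D acts through its receptor on genes of this route and on its own breakdown, and klotho is the co-receptor of the phosphate hormone FGF23. Six2 marks nephron progenitors, so the Cre reaches tubule epithelium derived from them and not vessels, stroma or collecting duct, and AP-2 beta is a transcription factor of the distal nephron.

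Counts assigned to genes totalled 13871861 to 15763526 in the knockout libraries and 14721847 to 16629301 in the wildtype libraries. Tfap2a was at 5.05 ± 0.99 CPM (counts per 1000000 counts of the scaled library) in the knockout libraries and 4.21 ± 1.08 CPM in the wildtype libraries, and Tfap2b at 79.9 ± 20.3 and 78.2 ± 20.5 CPM (SD, n = 4 each). The counts of the targeted genes therefore did not set the libraries labelled knockout apart, and every direction below is drawn from the labels. Knockout replicate 2 and wildtype replicate 1 held adrenal transcripts, with the 5 adrenal markers summing to 909 and 879 CPM against 4.51 to 11.4 CPM in the others. Heat-shock markers summed to 743 and 1203 CPM in knockout replicates 2 and 4, against 252.6 to 344 CPM elsewhere. The 4 red cell markers summed to 7708 CPM in knockout replicate 1, the highest library for Calb1 and Atp2b1, against at most 1307 CPM in the others. The sum of the 5 endothelial markers did not overlap between the groups, at 303.5 to 328 CPM in knockout and 251 to 282 CPM in wildtype libraries. Taken singly, Kdr overlapped and Plvap, Flt1, Tie1 and Pecam1 did not, beside 1.97% of all tested genes that did not overlap. The part of the endothelial markers in the results was not tested. The 10 clock genes summed to 391 and 398 CPM in knockout replicate 4 and wildtype replicate 4, against 454 to 616 CPM in the others. The sum joins genes that moved in opposite directions. In those libraries Arntl was higher, at 24.3 and 20.4 CPM against 1.77 to 6.75 CPM in the others. Dbp was lower there, at 18.0 and 34.1 CPM against 62.1 to 132 CPM. Per1 was highest in knockout replicate 4 and lowest in wildtype replicate 4. All 7 distal convoluted tubule markers, summing to 3492 to 4075 CPM in knockout and 3506 to 4317 CPM in wildtype libraries, and all 6 connecting tubule markers, summing to 977 to 1353 and 898 to 1564 CPM, were detected. The connecting tubule list includes Calb1, Trpv5, Slc8a1 and S100g, and the distal convoluted tubule list includes Kl. These sums are therefore no separate measure of segment content beside the genes described here. The 5 principal cell markers summed to 1172, 1046, 662.6 and 1122 CPM over knockout replicates 1 to 4. Over wildtype replicates 1 to 4 they summed to 774.4, 626.9, 705.7 and 740.5 CPM. There, and in the thick ascending limb and urothelium sums, knockout replicates 1, 2 and 4 lay above every wildtype library. The sums of proximal tubule and smooth muscle markers did not show this order. The part of these markers in the results was not tested. Whether the libraries are separate animals is not stated, so the p-values speak only of the spread among these 8, which may be technical.

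None of the 10 calcium and vitamin D genes passed the test between the libraries labelled knockout and wildtype. Trpv6, the channel with the lowest level, had the largest difference, and the other 9 genes differed by at most 0.33 on the log2 scale in either direction. By edgeR's quasi-likelihood test with Benjamini-Hochberg adjustment over 14433 genes, 0 of the 10 genes were called, where the background was 0% of all tested genes (smallest adjusted p = 0.957 for both). At an unadjusted p under 0.05 the count was 0 of 10, against a background of 4%, and the libraries of both groups overlapped for all 10, where 1.97% of tested genes did not overlap. DESeq2 was run without the low-count filter (24562 genes with a p-value) and limma-voom on the 14433 filtered genes. Both also called 0 of the 10, against backgrounds of 0.0163% of genes by DESeq2 and 0% by limma-voom. The smallest unadjusted p of the 10 genes was that of Trpv6 by both tools, 0.0415 by DESeq2 and 0.0519 by limma-voom, so DESeq2 had 1 of 10 under 0.05, where 2.91% of all genes were, and limma-voom 0, where 4.1% were. Differences were positive for 3 of the 10 genes and negative for 7, with a median of -0.10, while 51.3% of all tested genes were positive with a median of 0.01. In simulated counts, 73% of genes given a log2 change of 1 were called by the same test. Those counts held 200 changed genes of differing spread, with log2 changes of 1 or 2. The rate does not carry over to a few changed genes, or to Trpv6, S100g and Cyp24a1, with an SE of 0.38 to 0.39. In whole kidney, fewer cells of a type and less RNA per cell cannot be told apart.

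**Figure D1:**
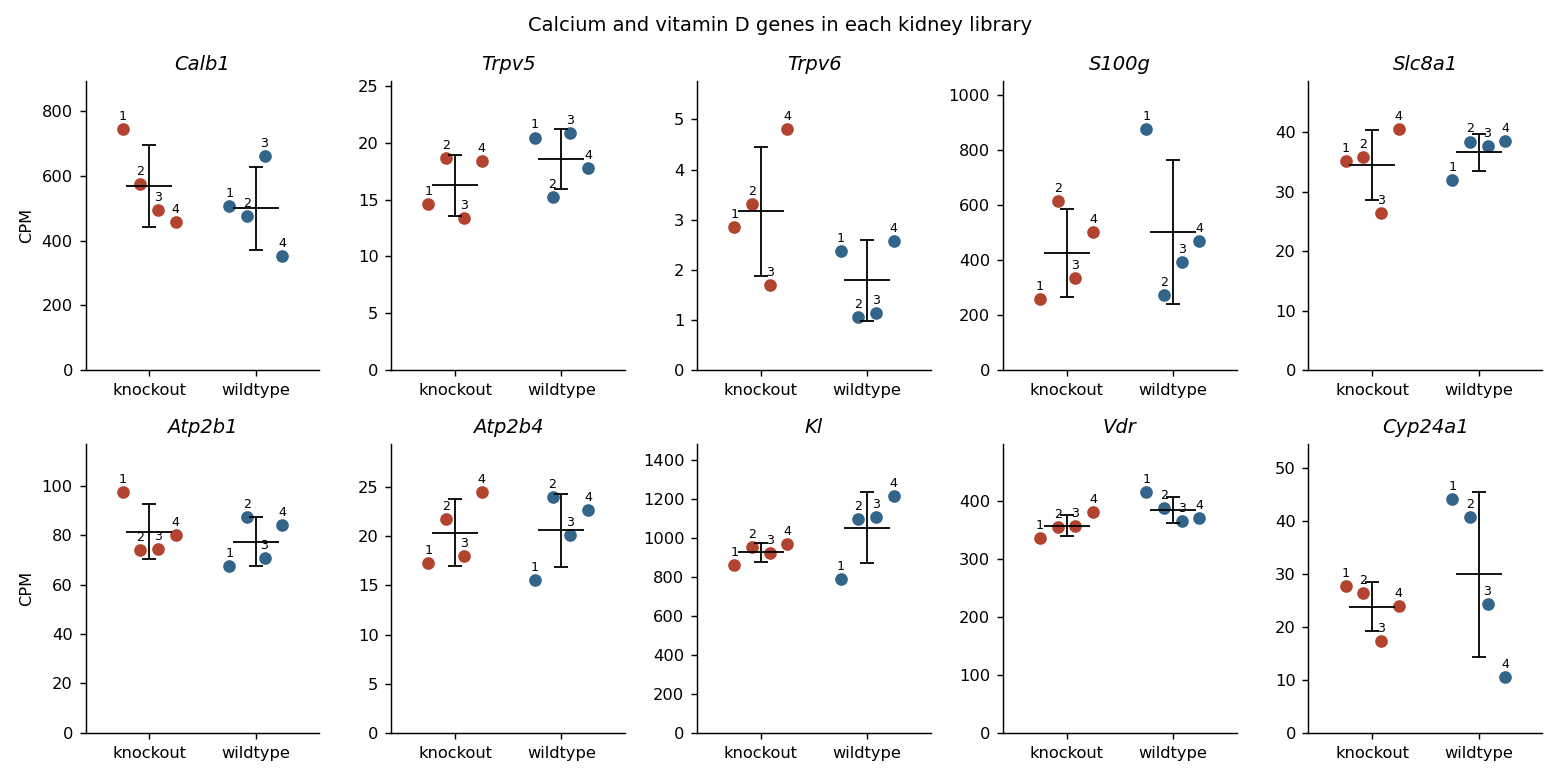
CPM of each of the 10 genes (vertical axes, from 0) in the 4 knockout libraries (red, left) and the 4 wildtype libraries (blue, right); digits are replicate numbers, horizontal bars the mean and whiskers the SD. The groups overlap in all 10 panels, and S100g, Cyp24a1 and Trpv6 spread the most.

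The apical entry channels are encoded by a pair of neighbouring genes. Trpv6 lies on chromosome 6 at 41620624 to 41636405 and Trpv5 at 41652173 to 41680769, both on the minus strand of GRCm38 and 15768 bases apart. Trpv5, the main renal entry channel, was at 14.6, 18.7, 13.3 and 18.4 CPM over knockout replicates 1 to 4. It was at 20.5, 15.2, 20.8 and 17.7 CPM over wildtype replicates 1 to 4. Wildtype replicates 1 and 3 lay above every knockout library, while wildtype replicate 2 lay among them. The log2 difference, knockout minus wildtype, was -0.19 (SE 0.15, 95% interval -0.53 to 0.15; adjusted p by edgeR = 0.957).

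Trpv6, the channel better known from the intestine, was counted sparsely, with 45, 52, 23 and 72 reads in knockout replicates 1 to 4 and 35, 17, 18 and 40 reads in wildtype replicates 1 to 4. These are 2.85, 3.31, 1.70 and 4.81 CPM in the knockout libraries against 2.38, 1.06, 1.14 and 2.58 CPM in the wildtype libraries. Knockout replicates 1, 2 and 4 lay above all wildtype libraries and knockout replicate 3 lay between the wildtype pairs. Trpv6 thus differed by 0.83 on the log2 scale (SE 0.38, 95% interval -0.02 to 1.67; edgeR unadjusted p = 0.0535, adjusted p = 0.957). It was 0.56 without knockout replicate 4 and 0.36 without the heat-shock libraries, knockout replicates 2 and 4. It was larger, at 1.06, without wildtype replicate 4, and 1.03 without knockout replicate 3. Counting error alone comes to 24.3% of the lowest Trpv6 count.

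The intracellular buffers were the most abundant carriers. Calb1 (calbindin-D28k, chromosome 4, 15881264 to 15908064) was at 744, 575, 496 and 459 CPM over knockout replicates 1 to 4. It was at 508, 477, 663 and 352 CPM over wildtype replicates 1 to 4. Knockout replicate 1 was the highest of the 8 libraries and wildtype replicate 4 the lowest, with the other 6 interleaved. Calb1 differed by 0.18 on the log2 scale (SE 0.20, 95% interval -0.26 to 0.63; adjusted p by edgeR = 0.957), and by 0.028 without knockout replicate 1. With 1 wildtype library left out it ran from 0.049 (replicate 4) to 0.35 (replicate 3).

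S100g (calbindin-D9k, chromosome X, 162961992 to 162964599) was at 259.7, 615, 334 and 502 CPM over knockout replicates 1 to 4. It was at 877, 273, 395 and 469.6 CPM over wildtype replicates 1 to 4. The highest library of each group, knockout replicate 2 and wildtype replicate 1, was also the group's library with adrenal transcripts. S100g differed by -0.24 on the log2 scale (SE 0.38, 95% interval -1.10 to 0.63; adjusted p by edgeR = 0.960). It was 0.18 without wildtype replicate 1, and -0.05 without both adrenal libraries. S100g overlaps Ctps2 on the opposite strand, and the counts ignored strand.

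S100g and Trpv6 are the buffer gene and the channel gene whose levels varied most over libraries, and both are known vitamin D targets in the intestine. Their promoters are shown for that reason, from 250 bases before to 50 bases after the RefSeq start on GRCm38.p6, minus strand, chrX:162964550-162964849 for S100g and chr6:41636356-41636655 for Trpv6. Capitals mark 6-base half-sites, letters of the kind the vitamin D receptor binds in pairs, on either strand: AGGTCA with the relative AGTTCA, and GGGTCA with the relative GGTTCA.
S100g: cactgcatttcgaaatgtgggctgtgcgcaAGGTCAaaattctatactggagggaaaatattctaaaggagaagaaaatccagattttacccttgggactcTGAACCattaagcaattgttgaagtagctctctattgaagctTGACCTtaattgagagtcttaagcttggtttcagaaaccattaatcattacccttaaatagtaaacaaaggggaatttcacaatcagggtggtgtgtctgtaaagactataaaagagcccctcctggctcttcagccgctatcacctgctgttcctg
Trpv6: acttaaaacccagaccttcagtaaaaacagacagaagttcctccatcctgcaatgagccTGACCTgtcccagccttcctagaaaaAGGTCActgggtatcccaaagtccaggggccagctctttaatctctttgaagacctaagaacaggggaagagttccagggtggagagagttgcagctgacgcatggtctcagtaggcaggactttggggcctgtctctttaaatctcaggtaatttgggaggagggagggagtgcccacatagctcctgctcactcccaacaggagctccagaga
S100g held 3 such half-sites and Trpv6 held 2, and 43.7% of the 32851 RefSeq promoter windows held at least 1. Of the 10 genes, 8 had an entry (all but Calb1 and Cyp24a1), and 4 of these held a half-site: Trpv6, S100g, Kl and Vdr. None of the 8 held a pair of half-sites in the same direction 3 bases apart (0.0396% of all windows), or the AP-2 palindrome GCCNNNGGC (16.6% of all windows). A missing match says only that these letters are not in this window.

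On the basolateral side, the exchanger and pump genes differed by at most 0.088 on the log2 scale between the groups. Slc8a1, the sodium-calcium exchanger NCX1 (chromosome 17, 81373105 to 81738377), was at 35.1, 35.8, 26.4 and 40.5 CPM over knockout replicates 1 to 4. It was at 31.9, 38.4, 37.6 and 38.5 CPM over wildtype replicates 1 to 4. Knockout replicate 3 was the lowest of the 8 libraries. Its log2 difference was -0.088 (SE 0.13, 95% interval -0.38 to 0.21; adjusted p by edgeR = 0.957) and 0.019 without that library.

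Atp2b1, the widely expressed plasma membrane pump PMCA1 (chromosome 10, 98914406 to 99026143), was at 97.4, 74.0, 74.2 and 79.8 CPM over knockout replicates 1 to 4. It was at 67.3, 87.4, 70.6 and 83.9 CPM over wildtype replicates 1 to 4. Atp2b1 differed by 0.074 on the log2 scale (SE 0.12, 95% interval -0.20 to 0.35; adjusted p by edgeR = 0.962), and -0.024 without knockout replicate 1, the highest library. Atp2b4, the plasma membrane pump PMCA4 (chromosome 1, 133699457 to 133801041), was at 17.2, 21.7, 18.0 and 24.5 CPM in knockout and 15.6, 23.9, 20.1 and 22.7 CPM over wildtype replicates 1 to 4. Atp2b4 differed by -0.016 on the log2 scale (SE 0.16, 95% interval -0.38 to 0.34; adjusted p by edgeR = 0.995). That sign turned with scaling by total counts (0.023) and without knockout replicate 1 (0.057), knockout replicate 3 (0.037), wildtype replicate 2 (0.064) or wildtype replicate 4 (0.034).

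Among the genes of hormonal control, Kl encodes klotho (chromosome 5, 150952607 to 150993817). It was at 859.6, 953, 924 and 971 CPM over knockout replicates 1 to 4, and at 791, 1098, 1106.5 and 1218.5 CPM over wildtype replicates 1 to 4. The knockout libraries lay close together, below 3 of the 4 wildtype libraries and above wildtype replicate 1. On the log2 scale, klotho mRNA differed by -0.18 (SE 0.14, 95% interval -0.49 to 0.12; adjusted p by edgeR = 0.957). It was -0.31 without the adrenal libraries, -0.30 without wildtype replicate 1 alone, and -0.11 without wildtype replicate 4, the highest library.

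Vdr, the vitamin D receptor gene (chromosome 15, 97854425 to 97910630), was at 335, 355, 357 and 381 CPM over knockout replicates 1 to 4. It was at 415, 388, 365 and 371 CPM over wildtype replicates 1 to 4. Every library lay within 1.24-fold of every other, and 5.52% of tested genes had a smaller SD of log2 CPM over the 8 libraries. Vdr differed by -0.11 on the log2 scale (SE 0.094, 95% interval -0.31 to 0.10; adjusted p by edgeR = 0.957).

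Cyp24a1, the mitochondrial 24-hydroxylase that breaks down active vitamin D (chromosome 2, 170482708 to 170497145), was at 27.6, 26.3, 17.4 and 24.0 CPM over knockout replicates 1 to 4. It was at 44.0, 40.7, 24.4 and 10.4 CPM over wildtype replicates 1 to 4. The knockout libraries lay inside the range of the wildtype libraries, which spanned 4.21-fold. For Cyp24a1 the log2 difference was -0.33 (SE 0.39, 95% interval -1.21 to 0.56; adjusted p by edgeR = 0.957). It was -0.61 without wildtype replicate 4, the lowest library, and -0.076 without wildtype replicate 1, the highest. Cyp24a1 overlaps Pfdn4 on the opposite strand.

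The spread over libraries differed widely among the 10 genes. The SD of log2 CPM over the 8 libraries was 0.71 for Trpv6, 0.66 for Cyp24a1 and 0.60 for S100g, and between 93.1% and 95.9% of tested genes had a smaller one. It was 0.33 for Calb1, and 0.18 to 0.24 for Trpv5, Slc8a1, Atp2b1, Atp2b4 and Kl, around the median of 0.23 over tested genes. Within groups, the SD of Cyp24a1 was 0.30 in knockout and 0.95 in wildtype libraries, and that of Kl was 0.08 in knockout and 0.27 in wildtype libraries. These differences in spread were not tested.

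**Figure D2:**
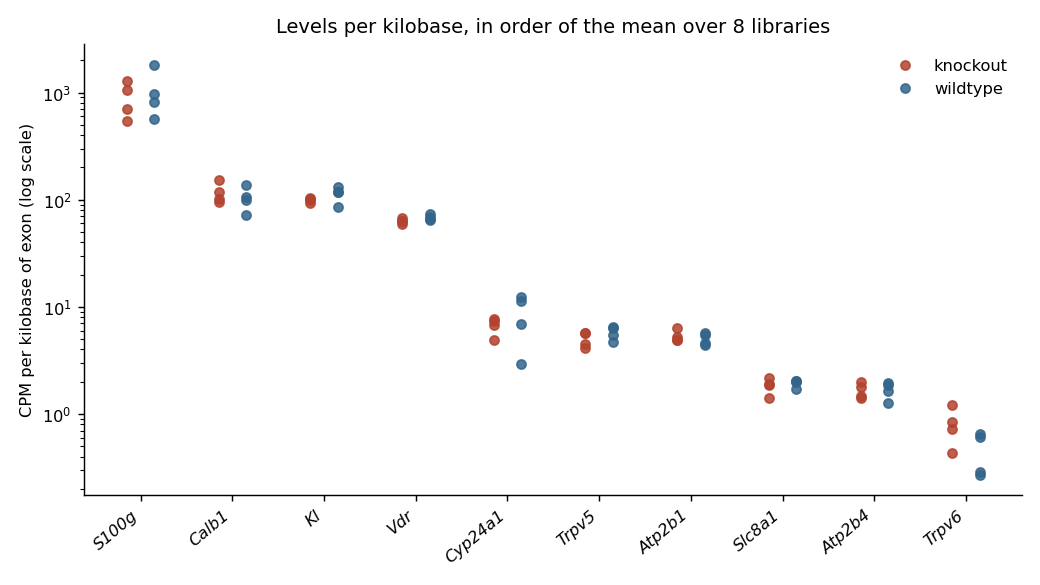
CPM per kilobase of annotated exon (log axis) of each gene in the 4 knockout (red, left) and 4 wildtype (blue, right) libraries, ordered by the mean over all 8. S100g stands above the rest, Calb1, Kl and Vdr follow, and Trpv6 is last.

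Levels of different genes were compared per kilobase of exon. S100g led with 891 ± 335 CPM per kilobase in knockout and 1049 ± 545 in wildtype libraries (SD, n = 4 each), and its lowest library lay above the highest of any other gene. Calb1 followed with 117 ± 26.1 and 103 ± 26.3 CPM per kilobase in knockout and wildtype libraries, and Kl with 99.4 ± 5.22 and 113 ± 19.7. Calb1 and Kl did not differ beyond their spread, as Calb1 was the higher in 5 of 8 libraries. Vdr was at 63.2 ± 3.32 and 68.1 ± 4.00 CPM per kilobase in knockout and wildtype libraries, below Kl and above Cyp24a1 in all 8.

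A second tier held Cyp24a1 at 6.69 ± 1.27 and 8.39 ± 4.37 CPM per kilobase in knockout and wildtype libraries, Trpv5 at 5.01 ± 0.82 and 5.72 ± 0.81, and Atp2b1 at 5.35 ± 0.73 and 5.08 ± 0.65. Trpv5 was above Atp2b1 in 4 of 8 libraries, and the ranges of these 3 genes overlapped. Slc8a1 at 1.83 ± 0.31 and 1.95 ± 0.17 and Atp2b4 at 1.66 ± 0.28 and 1.68 ± 0.30 also overlapped. Trpv6 was lowest in every library, at 0.80 ± 0.33 CPM per kilobase in knockout and 0.45 ± 0.20 in wildtype libraries. With the longest transcript in place of all exons, 5 of the 10 ranks were kept: Kl then stood above Calb1 and Atp2b1 above Cyp24a1 and Trpv5.

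The wider calcium pathway was read from 5 lists with 50 genes. In these lists 0 of 43 tested genes passed the test by edgeR, DESeq2 or limma-voom, against backgrounds of 0% by edgeR and limma-voom and 0.0163% by DESeq2. By edgeR, 3 of the 43 had an unadjusted p under 0.05, against the background of 4%: Slc9a3r2, Cyp27b1 and Esr1. Genes of channel trafficking and activation were positive for 10 of 11, with a median log2 difference of 0.18, beside 51.3% positive and a median of 0.01 over all tested genes. Slc9a3r2, a scaffold of apical membrane proteins, was at 54.2, 51.1, 55.7 and 46.2 CPM in knockout and 46.9, 40.3, 39.3 and 41.1 CPM over wildtype replicates 1 to 4. Only knockout replicate 4 and wildtype replicate 1 overlapped. Its log2 difference was 0.31 (SE 0.10; edgeR unadjusted p = 0.0104, adjusted p = 0.957). Its relative Slc9a3r1 differed by -0.20 (SE 0.11), and Klk1, tissue kallikrein and the most abundant of the list per kilobase, by 0.21 (SE 0.26). The Klk1 value was 0.011 without wildtype replicate 2 and 0.44 without wildtype replicate 1.

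Of the vitamin D supply genes and receptor partners, 6 of 11 tested genes were positive and the median log2 difference was 0.02. Cyp27b1, the 1-alpha-hydroxylase that makes active vitamin D, was at 2.79, 3.50, 2.00 and 8.54 CPM in knockout and 2.38, 1.19, 1.39 and 1.94 CPM over wildtype replicates 1 to 4. Knockout replicate 4 stood far above the rest, and knockout replicate 3 lay below wildtype replicate 1. Cyp27b1 differed by 1.29 on the log2 scale (SE 0.44, 95% interval 0.31 to 2.27; edgeR unadjusted p = 0.0149, adjusted p = 0.957), and 0.69 without knockout replicate 4. Cyp27a1, a sterol and vitamin D 25-hydroxylase, differed by 0.22 (SE 0.10), and Lrp2, the megalin receptor that takes up vitamin D binding protein, by -0.11 (SE 0.15).

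Hormone receptors and calcium sensing genes were positive for 3 of 8 tested, with a median of -0.09. Esr1, the estrogen receptor gene, differed by -0.40 on the log2 scale (SE 0.18; edgeR unadjusted p = 0.0434, adjusted p = 0.957), Casr, the calcium-sensing receptor, by -0.43 (SE 0.21), and Pth1r, the parathyroid hormone receptor, by -0.26 (SE 0.18). Esr1 was at -0.25 without knockout replicate 4 and -0.20 without the heat-shock libraries. In the list of claudins, where Cldn16 lines the paracellular calcium route of the thick ascending limb, 3 of 6 tested were positive with a median of 0.01. Cldn16 differed by 0.30 (SE 0.17), Cldn10 by -0.18 (SE 0.12) and Cldn2 by -0.04 (SE 0.13). Cldn16 was at 0.15 without knockout replicate 1, and Cldn10 at -0.11 without knockout replicate 2. Among other pumps, exchangers and buffers 5 of 7 tested were positive with a median of 0.22, Slc8b1, the mitochondrial exchanger, differed by 0.28 (SE 0.13), Atp2a3 by 0.22 (SE 0.12) and Atp2a2 by -0.03 (SE 0.21). Fgf23 had 0 counts in all 8 libraries, which allows up to 0.222 CPM in the smallest library from a floor of 3 counts.

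**Figure D3:**
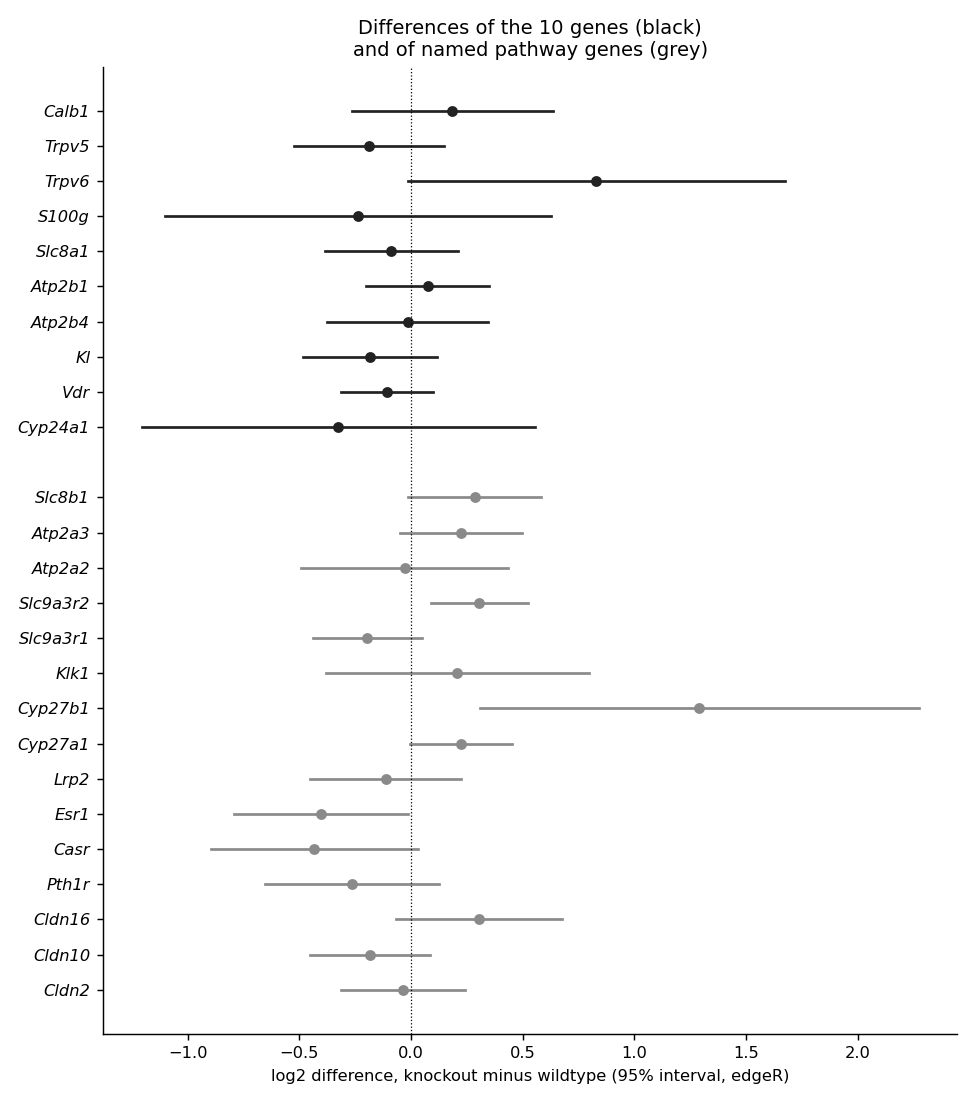
Log2 difference, knockout minus wildtype (horizontal axis), with its 95% interval from edgeR, for the 10 genes (black, top) and the named genes of the wider pathway (grey, below). Every black interval crosses 0, and the intervals of Trpv6, S100g and Cyp24a1 are the widest of the 10.

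Ratios within a library do not depend on how libraries are scaled, and 3 were compared. The count of Trpv6 over that of Trpv5 was 0.197, 0.179, 0.130 and 0.263 in knockout replicates 1 to 4. It was 0.118, 0.0719, 0.0560 and 0.147 in wildtype replicates 1 to 4. Knockout replicate 3 fell below wildtype replicate 4, and the other 3 knockout libraries lay above all wildtype libraries. The log2 ratio was -2.42 ± 0.42 in knockout and -3.45 ± 0.64 in wildtype libraries (SD, n = 4 each), a difference of 1.03 with an exact two-sided permutation p = 0.0571 (adjusted over 3 ratios, 0.143). Without wildtype replicate 4 the difference was 1.26 with exact p = 0.0286, the smallest p that either design allows, and with each of the other 7 libraries left out the exact p lay between 0.0571 and 0.114.

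The count of Cyp24a1 over that of Cyp27b1, breakdown against synthesis of active vitamin D, was 9.81, 7.45, 8.56 and 2.80 in knockout replicates 1 to 4. It was 18.3, 33.4, 17.2 and 5.33 in wildtype replicates 1 to 4. In both groups replicate 4, the library with shifted clock genes, had the lowest ratio, through different genes. Knockout replicate 4, also a heat-shock library, had the highest Cyp27b1 (8.54 CPM) with Cyp24a1 at 24.0 CPM. Wildtype replicate 4 had the lowest Cyp24a1 (10.4 CPM) with Cyp27b1 at 1.94 CPM. The part of the clock and heat-shock genes in the ratio was not tested. The difference of log2 ratios was -1.25 (exact two-sided permutation p = 0.114; adjusted, 0.143). It was -1.76 without wildtype replicate 4, with exact p = 0.0286, and -0.85 without knockout replicate 4, with exact p = 0.257. With each of the 7 libraries other than wildtype replicate 4 left out, the exact p lay between 0.114 and 0.257.

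The count of Calb1 over that of Slc12a3, the salt cotransporter of the distal convoluted tubule, was 1.61, 1.35, 1.03 and 1.06 in knockout and 1.23, 0.92, 1.02 and 0.78 in wildtype replicates 1 to 4. The groups overlapped, with a difference of log2 ratios of 0.35 (exact two-sided permutation p = 0.143; adjusted, 0.143). Slc12a3 itself was at 450.5 ± 25.4 CPM in knockout and 509 ± 104 CPM in wildtype libraries.

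**Figure D4:**
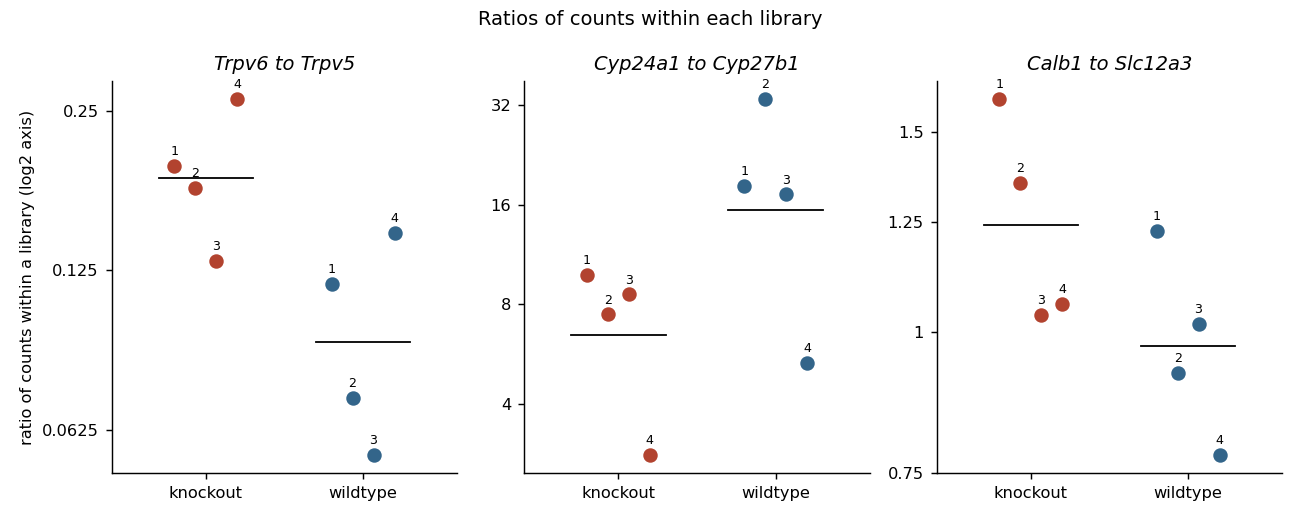
Ratio of the counts of 2 genes within each library (log2 axes) in knockout (red, left) and wildtype (blue, right) libraries; digits are replicate numbers and bars the mean of log2 ratios. The groups overlap in all 3 panels.

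The 10 genes did not vary as a block over the 8 libraries. Of 45 pairs, 25 correlated positively, 4 had an unadjusted exact permutation p under 0.05 and 0 passed after adjustment over the 45 pairs. The pair of Trpv5 and S100g gave Pearson's r = 0.75 (exact permutation p = 0.0353, adjusted 0.465) and Spearman's rho = 0.69 (exact p = 0.0694, adjusted 0.520). Without the 2 libraries farthest from the median of Trpv5, r was 0.67. For Slc8a1 and Atp2b4, r was 0.71 (exact permutation p = 0.0366, adjusted 0.465) and rho 0.88 (exact p = 0.00724, adjusted 0.326), with r = 0.82 without the 2 libraries farthest in Slc8a1.

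Atp2b4 and Kl gave r = 0.75 (exact permutation p = 0.0358, adjusted 0.465) and rho = 0.71 (exact p = 0.0576, adjusted 0.518), but r was 0.34 without knockout replicate 1 and wildtype replicate 1. S100g and Atp2b1 ran opposite, with r = -0.73 (exact permutation p = 0.0414, adjusted 0.465) and rho = -0.74 (exact p = 0.0458, adjusted 0.516), and r = -0.32 without the same libraries. Both of these relations were weaker without those libraries, the farthest from the median of Atp2b4 and of S100g. Leaving out the farthest libraries narrows the range, which can lower r by itself. No other pair of libraries was left out, so whether the relations rest on those was not tested. Within the 4 libraries of each group no correlation was computed.

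**Figure D5:**
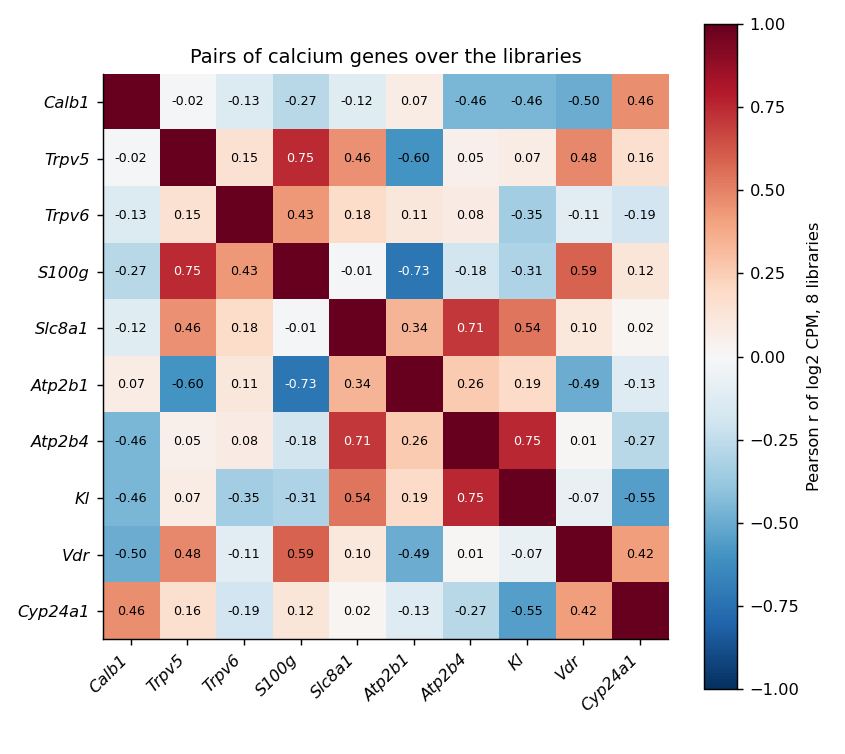
Pearson's r of log2 CPM over the 8 libraries for each pair of the 10 genes, from -1 (blue) to 1 (red). The highest values are 0.75 for Trpv5 with S100g and for Atp2b4 with Kl, and the lowest is -0.73 for S100g with Atp2b1.

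Genes whose pattern over the 8 libraries was most like that of 3 of the genes were found by Pearson's r of log2 CPM among 14432 others, as a description. Those most like Calb1 were Hsf2 (r = 0.96), Rpph1 (r = 0.96) and Slc2a13 (r = 0.96). Those most like Trpv5 were Zfc3h1 (r = 0.96), Dnah7b (r = 0.94) and Tmtc2 (r = 0.94), and those most like Kl were Ociad1 (r = 0.96), Kpna1 (r = 0.96) and Mre11a (r = 0.96). None of these 9 genes belongs to the calcium lists, which hold the 10 genes and 43 others of the 14433 tested. With so small a share, 0 of 9 says nothing about the pathway.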

How the data were processed

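Whole-kidney RNA of 8 libraries was measured, grouped by title. The deposited values are whole-number read counts per Ensembl gene, not normalized. The authors used STAR, HTSeq and edgeR with build mm9, per the submitters' processing notes; the annotation and all versions: not given in the sources used here. Counting ignored strand, per the deposited file names. Closing lines that name no gene were left out: they took 11.6% to 16.2% (outside genes), 2.05% to 2.31% (ambiguous) and 15.8% to 20.9% (several places) of a file's counts. Symbols, positions and exon lengths are from GENCODE M21 on GRCm38, matched by identifier (32860 of 37583), and no coordinate was converted. Promoter sequences are RefSeq's, on GRCm38.p6.

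The test was edgeR 4.0.16's quasi-likelihood test (R 4.3.3; TMM, filterByExpr with minimum count 10 and minimum total 15, robust, genotype only), two-sided, adjusted over 14433 genes, threshold 0.05. Intervals come from the same fit. CPM use TMM-scaled library sizes; log2 CPM for correlations use a prior count of 2, and ratios add 0.5 to each count. Ratios and correlations were tested by exact permutation. The test was tried on simulated counts (14267 genes, 200 changed), where it called 73% and 95.9% of genes changed by 1 and 2 on the log2 scale, and 9 unchanged genes. Floors cover counting error only, because PCR copies count as separate reads.

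The genes, lists and tests were chosen with earlier results of these data known. Named beyond the 10 are, for each list, the 2 lowest p-values and the most abundant gene per kilobase, and the 3 genes most like Calb1, Trpv5 and Kl. Alternatives were other scalings, no filter, no robust estimation, DESeq2 1.42.0, limma-voom 3.58.1, a block on replicate number, and leaving out each library; fits without the adrenal, clock-shifted or heat-shock libraries, and the alternatives for correlations between the genes, were chosen after seeing the data. Plots were made in matplotlib 3.10.9.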

Additional observations from a re-analysis of the deposited data

Results flagged for a closer look

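A gap test within each group of 4 libraries, run on the CPM of the 10 genes and the named pathway genes, singled out 3 values in 50 groups, and chance does so in about 1 in 20. Slc8a1 was at 31.9 CPM in wildtype replicate 1, below the other 3 wildtype libraries, which lay between 37.6 and 38.5 CPM. Cyp27a1 was at 44.4 CPM in wildtype replicate 4, below the 55.2 to 56.7 CPM of the other wildtype libraries. Pth1r was at 738 CPM in knockout replicate 3, above the 487 to 522 CPM of the other knockout libraries.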

How the results depend on the processing

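None of the 10 genes was called under any of the 18 alternatives, and the log2 differences of Calb1, Trpv5, Trpv6, Kl, Vdr and Cyp24a1 kept their sign in all of them. Signs turned for Atp2b4 (0.023) and Atp2a2 (0.012) with scaling by total counts only. When 1 library was left out, differences ran from -0.47 to 0.18 for S100g, -0.17 to 0.019 for Slc8a1, -0.024 to 0.14 for Atp2b1, -0.12 to 0.064 for Atp2b4, -0.19 to 0.14 for Atp2a2 and -0.10 to 0.022 for Cldn2. Without a change of sign they ran from -0.28 to -0.11 for Trpv5, -0.14 to -0.065 for Vdr, -0.21 to -0.026 for Lrp2, -0.42 to -0.17 for Pth1r and 0.15 to 0.27 for Cyp27a1. Cyp24a1 was at -0.14 by limma-voom. Over all genes, 4 were called by DESeq2, 0 to 2 with 1 library left out, 1 without the heat-shock libraries and 0 otherwise. Without the heat-shock libraries S100g differed by -0.76, Trpv5 by -0.41, Trpv6 by 0.36 and Cyp27b1 by 0.48. The replicate numbers gave no clear pairing: deviations of same-numbered libraries correlated at 0.226, -0.230, 0.282 and 0.293. The best wildtype match had the same number for knockout replicates 1 and 4, and another number for knockout replicates 2 and 3. With a replicate block 0 genes were called, 1075 had an unadjusted p under 0.05 against 578 without it, and the Trpv6 difference was 0.83. Under sign flips within replicate numbers (replicate block) the ratio differences were 1.03, -1.25 and 0.35, each with exact p = 0.125, the smallest that flips of 4 pairs allow. Leaving out 1 library, they ran from 0.79 to 1.26 for Trpv6 to Trpv5, -1.76 to -0.85 for Cyp24a1 to Cyp27b1 and 0.23 to 0.47 for Calb1 to Slc12a3. The count of adjusted correlations between the genes ran from 0 to 1 over libraries left out, the 1 being without knockout replicate 3. With group means subtracted, 1 of the 9 most alike genes stayed among the top 3. With the longest transcript as length 5 of 10 ranks were kept. The cause of these changes was not tested. Sparse counts limit Trpv6 and Cyp27b1.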

Other observations

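2 patterns among the pathway genes are given as values, chosen after they were seen. Pvalb, parvalbumin, a calcium buffer of the early distal convoluted tubule, measured 37.8, 1.72, 43.1 and 12.6 CPM over knockout replicates 1 to 4, against 2.51, 17.3, 27.5 and 0.84 CPM over wildtype replicates 1 to 4. Its highest library was 51.4-fold above its lowest, each group holding both high and low libraries, while the cotransporter gene Slc12a3 of that segment stayed between 414 and 652 CPM. The log2 difference of Pvalb was 0.98 (SE 1.21; adjusted p by edgeR = 0.957).

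Over the 430 pairs of 1 of the 10 genes with 1 other pathway gene, Trpv6 and Cyp27b1 had the lowest p, with Pearson's r = 0.92 (exact permutation p = 0.000248, adjusted 0.107) and Spearman's rho = 0.93 (exact p = 0.00223, adjusted 0.390) over 8 libraries. Without wildtype replicates 2 and 3, the farthest from the median of Trpv6, r was 0.90. That check kept knockout replicate 4, and r without it was not computed. Both genes were highest in knockout replicate 4 and lowest in wildtype replicate 2. Both rest on low counts, 17 to 72 for Trpv6 and 19 to 128 for Cyp27b1. After adjustment 0 of the 430 pairs passed.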
